A study of Rattus norvegicus with 8 samples.

Results

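Receptors for the inhibitory transmitters GABA and glycine, their postsynaptic scaffold, and the transporters and channels that set the chloride gradient were examined in rat retinal ganglion cells. The set was chosen by name and holds 31 genes. Probes annotated with a single symbol measured 30 of them, out of 14801 named genes tested, with 44 probes in all. Gabarapl1, a relative of the receptor trafficking protein GABARAP, had no such probe and is not analysed here. Ganglion cells were labelled with the retrograde tracer 4DI-10ASP, sorted from fresh rat retina into a large and a small population in the presence of actinomycin D, and compared on 8 two-colour Agilent oligonucleotide arrays after linear amplification of their RNA. No source used here gives the strain, age or number of rats per array. Every array sets large cells, listed as Cy5, against small cells, listed as Cy3, so there is 1 group of 8 arrays, named here by their title numbers 39, 40, 41, 42, 43, 69, 70 and 71. A sorted population holds several ganglion cell types, and a lower ratio can come from fewer cells of a type or from less RNA per cell, which cannot be told apart here.

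Fast inhibition in the retina runs through ligand-gated chloride channels. GABA-A receptors are mixed assemblies of alpha, beta and further subunits, the products of the Gabrr genes form slowly desensitising GABA receptors that are best known from bipolar cells, and glycine receptors join alpha subunits with a beta subunit that binds the scaffold gephyrin. GABA-B receptors are different in kind: they couple to G proteins and need both a GABA-binding subunit (GABBR1) and a partner that carries it to the membrane and signals (GABBR2). Ganglion cells receive GABA and glycine mainly from amacrine cells. Whether an open chloride channel inhibits or excites depends on the cation-chloride cotransporters, of which KCC2 (Slc12a5) exports chloride and NKCC1 (Slc12a2) imports it.

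All values are log2 ratios of the channels as deposited by the authors. The numerator of the ratio is not stated, nor is the handling of dye-swapped arrays. If the ratio runs from the first listed channel to the second, a positive value means more RNA in large cells. Values are otherwise described only as lying on the positive or negative side. The arrays alternate in title order between one set (39, 41, 43 and 70, called set 1) and the other (40, 42, 69 and 71, set 2). Over all probes the Pearson correlation ran from 0.22 to 0.68 within the sets and from -0.32 to 0.16 between them, with 15 of 16 pairs between the sets negative and 2 of them under -0.3. The direction is therefore not settled, and values with the signs of set 2 turned are given beside the called genes and, for the other genes, further down. The labels state that each biological replicate was run as a pair of technical subreplicates but not which arrays belong together, so p-values over 8 single arrays are too small where arrays share RNA. Arrays that stand next to each other in title order (39 with 40, 41 with 42, 43 with 69, 70 with 71) are called neighbouring arrays, a pairing that the labels do not give. The arrays hold ratios and no levels, so the presence of a marker cannot be checked. All 12 ganglion cell marker genes listed were measured, and their mean ratio ran from -0.35 to -0.07 over the arrays. In the test described next, 2 of them were called, both negative and both negative on 8 of 8 arrays: Thy1 at -0.30 ± 0.11 and Slc17a6 at -0.64 ± 0.38. Of 10 Müller glia markers 1 was called, Rlbp1 at 0.50 ± 0.31, and the list mean ran from -0.22 to 0.25. With set 2 turned these 3 lay at 0.05, 0.27 and -0.05.

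A gene is called here when its mean ratio over the 8 arrays differs from 0 at an adjusted p under 0.05 in limma, a linear model fitted across all 14801 genes with Benjamini-Hochberg adjustment. Of the 30 measured genes, 3 were called, 2 negative and 1 positive. Over all genes 2.19% were called, 1.62% negative and 0.568% positive. The called members are Gabbr2, the signalling subunit of the GABA-B receptor, Glrb, the beta subunit of the glycine receptor, and Gabrr1, a subunit of these slowly desensitising GABA receptors. Gabbr2 and Gabrr1 were each measured by 1 probe and Glrb by 2. Tested among 41040 single probes, those of Gabbr2 and Gabrr1 had limma adjusted p = 0.0583 and 0.0573 and were not called. At an unadjusted limma p under 0.05 there were 10 members, 6 negative and 4 positive, beside 13.1% of all genes. Mean ratios of the 30 genes ran from -0.60 to 0.35 with a median of -0.03, and 18 of them were negative. Over all genes tested the median was -0.01. The median size, ignoring sign, was 0.12 for the members and 0.08 for all genes. From averages of neighbouring arrays limma called 0 members and 0% of all genes, with 6 members and 13.0% of all genes at an unadjusted p under 0.05. With set as a covariate 4 members and 6.27% of all genes were called, and with neighbouring arrays as a random block besides, 2 members and 3.04%.

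**Figure D1:**
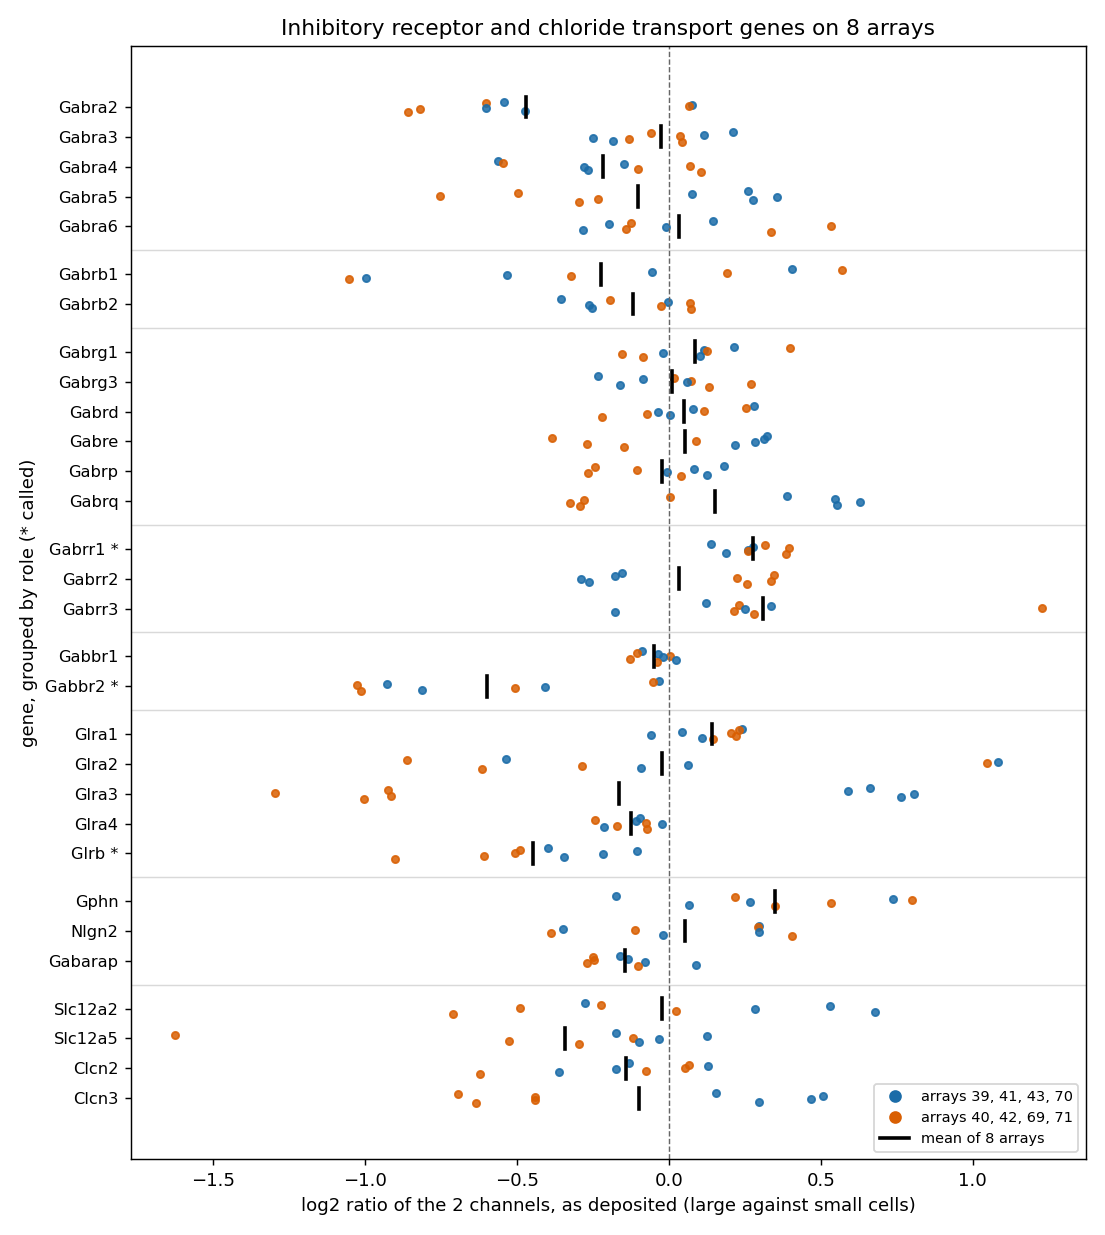
Each point is the log2 ratio of one gene on one array (horizontal axis), with blue for arrays 39, 41, 43 and 70 and orange for arrays 40, 42, 69 and 71; the black bar is the mean of 8 arrays, genes are grouped by role, and an asterisk marks the 3 called genes. Gabrr1 lies to the right of 0 and Gabbr2 and Glrb to the left on all 8 arrays, while Glra3, Gabrr2 and Clcn3 split by colour.

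The 250 bases before the annotated start of the called genes are shown because these are the genes that the results turn on. They come from RefSeq, build GRCr8, and are written 5′ to 3′ on the gene's strand. Capitals mark matches, on either strand, to any of GGGCGG (the GC box), TAATCC (the core recognised by OTX and CRX factors), CANNTG (the E-box) and TATAAA (the TATA box).
Gabbr2, chr5:66083696-66083945, minus strand: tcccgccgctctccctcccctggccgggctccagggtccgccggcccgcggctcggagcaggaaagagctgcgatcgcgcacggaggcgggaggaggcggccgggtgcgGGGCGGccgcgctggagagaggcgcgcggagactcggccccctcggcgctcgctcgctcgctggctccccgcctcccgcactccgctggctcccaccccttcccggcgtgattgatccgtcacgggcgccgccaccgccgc
Glrb, chr2:168505615-168505864, minus strand: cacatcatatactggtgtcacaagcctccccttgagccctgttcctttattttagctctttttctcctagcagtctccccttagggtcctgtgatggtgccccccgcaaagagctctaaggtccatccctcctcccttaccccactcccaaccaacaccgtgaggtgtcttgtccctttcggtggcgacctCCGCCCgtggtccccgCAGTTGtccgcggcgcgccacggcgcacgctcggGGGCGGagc
Gabrr1, chr5:52320225-52320474, plus strand: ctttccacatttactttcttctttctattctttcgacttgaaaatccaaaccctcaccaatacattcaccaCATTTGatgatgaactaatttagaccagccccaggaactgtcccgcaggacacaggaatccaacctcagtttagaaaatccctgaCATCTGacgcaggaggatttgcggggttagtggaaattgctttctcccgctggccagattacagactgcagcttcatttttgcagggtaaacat
The windows of the called genes differ in base composition. That of Gabbr2 is 78.8% G and C with 39 CG dinucleotides, that of Glrb 61.2% with 16, and that of Gabrr1 44.0% with 5, where the median of 33469 windows in the table was 51.2% with 5. The GC box occurs 1 time in the Gabbr2 window, 2 times in that of Glrb and 0 times in that of Gabrr1, and 30.5% of all windows hold it. The E-box occurs 2 times for Gabrr1, 1 time for Glrb and 0 times for Gabbr2, against 65.5% of all windows. None of these 3 windows holds TAATCC or TATAAA, which 6.34% and 12.9% of all windows hold. Of the other Gabrr genes, the window of Gabrr2 holds TAATCC 1 time and that of Gabrr3 2 times, and that of Glra3 1 time. These windows were searched for 28 of the 31 genes, without Gabra2, Gabrp and Glra1. A match is a run of letters, not a bound site.

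Gabbr2 had the lowest mean of the 30 genes as deposited. Its ratios were -0.03 on array 39, -0.05 on 40, -0.93 on 41, -1.03 on 42, -0.41 on 43, -0.50 on 69, -0.81 on 70 and -1.01 on 71. All 8 were negative, but arrays 39 and 40 lay close to 0, and neighbouring arrays gave nearly the same value each time. The mean was -0.60 ± 0.41 (SD, n = 8 arrays, 1.51-fold), with a limma adjusted p = 0.0467 and an exact two-sided sign-flip permutation p = 0.00781, the smallest that 8 arrays can give. By set, the means were -0.54 and -0.65, and with set 2 turned the mean was 0.05 (limma adjusted p = 0.886). The call was lost when neighbouring arrays were averaged (limma adjusted p = 0.227), after median centring of the arrays (0.0549), with a random term for neighbouring arrays beside the set (0.0554), and without any 1 of arrays 41, 42, 43, 69, 70 and 71 (0.0916 to 0.138). The ganglion cell markers Thy1 and Slc17a6, 2 of 12 listed, were called on the same side as Gabbr2 and Glrb. Of the 12 marker means, 9 were negative and 3 positive: Gap43 at 0.15, Rbpms at 0.05 and Isl1 at 0.04. The part of these markers in the values of Gabbr2 and Glrb was not tested.

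The ratios of the partner subunit lay closer to 0. Gabbr1 stayed between -0.13 and 0.02 on the 8 arrays, with a mean of -0.05 ± 0.05 (95% interval from -0.16 to 0.07, limma adjusted p = 0.838). Its 3 probes had means of -0.15, 0.00 and 0.01 but ran from -0.49 to 0.28 on single arrays, and 2 of them split by set in opposite directions, so the narrow range belongs to their average. Within an array, the Gabbr2 ratio, from 1 probe, minus the Gabbr1 ratio, from 3, was -0.55 ± 0.45 on average and 0.03 with set 2 turned. It was negative on 6 of 8 arrays and 0.06 and 0.05 on arrays 39 and 40. This difference, like the other gene-to-gene differences below, was chosen with the values known and is given without a test.

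Among glycine receptor genes, Glrb was called. Its ratios were -0.40 on array 39, -0.49 on 40, -0.10 on 41, -0.51 on 42, -0.21 on 43, -0.61 on 69, -0.34 on 70 and -0.90 on 71. All were negative, and in each pair of neighbouring arrays the one from set 2 was lower. The sets did not overlap. The mean was -0.45 ± 0.25 (n = 8, 1.36-fold), with a limma adjusted p = 0.0299 and an exact sign-flip permutation p = 0.00781. Set means were -0.27 and -0.63, and the mean with set 2 turned was 0.18 (limma adjusted p = 0.417). Averages of neighbouring arrays gave a limma adjusted p = 0.0953. The call was also lost without any 1 of arrays 40, 42, 43, 69, 70 and 71 (limma adjusted p from 0.0538 to 0.0839).

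The Glrb value is a mean of probes that disagree. One probe averaged -0.67 ± 0.74 and was positive on array 39 at 0.68. The other averaged -0.22 ± 0.54 and stood at -1.47 on that same array. Neither was called alone (limma adjusted p = 0.222 and 0.721 over 41040 single probes). On array 39 the gene value of -0.40 thus averages probes of opposite sign. Single probes gave 0 called members in limma, with 8 of 44 probes at an unadjusted p under 0.05. Over all single probes 1.75% were called and 12.2% had an unadjusted p under 0.05.

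The glycine receptor alpha subunits, which bind the transmitter, had no called member, with 2 of 4 at an unadjusted limma p under 0.05. Glra1 lay at 0.14 ± 0.11 (limma adjusted p = 0.331) and was positive on 7 of 8 arrays. Its 2 probes averaged 0.20 and 0.08, each had 3 negative arrays, and these came from different sets. Glra4 lay at -0.12 ± 0.08 (limma adjusted p = 0.374), between -0.24 and -0.02, so it joined the 3 called genes as the 4 members with 1 sign on every array. Over all genes 4.44% kept 1 sign. Any gene with 1 sign on all 8 arrays has an exact sign-flip permutation p = 0.00781, Glra4 included, so that p only restates the single sign.

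Glra2 and Glra3 spread far more widely around means close to 0. Glra2 stood at -0.53 and -0.86 on arrays 39 and 40, at 1.08 and 1.05 on 41 and 42, at 0.06 and -0.28 on 43 and 69, and at -0.09 and -0.61 on 70 and 71. The 2 high arrays were neighbours, while the lowest ones, 40 and 71, were not. Its mean was -0.02 ± 0.73 (95% interval from -0.51 to 0.47, limma adjusted p = 0.988). Microglia markers, a list of 10 measured genes with 0 called in limma and 4 at an unadjusted p under 0.05, had means of 0.96 and 0.86 on arrays 39 and 40, -0.33 and -0.38 on 41 and 42, and 0.19 to 0.25 on the others. On arrays 39 and 40 Glra2 was low and this list high, and on arrays 41 and 42 the reverse. The other arrays did not follow this: Glra2 was at -0.61 on array 71 and 0.06 on array 43, with the list at 0.25 and 0.22. The part of these cells in the result was not tested.

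Glra3 alternated. It was 0.66, 0.59, 0.81 and 0.77 on the arrays of set 1 and -0.92, -1.30, -0.91 and -1.003 on those of set 2, with no overlap. Its mean was -0.16 ± 0.94 as deposited (limma adjusted p = 0.921) and 0.87 with set 2 turned (limma adjusted p = 0.000328), the highest turned value of the members.

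**Figure D2:**
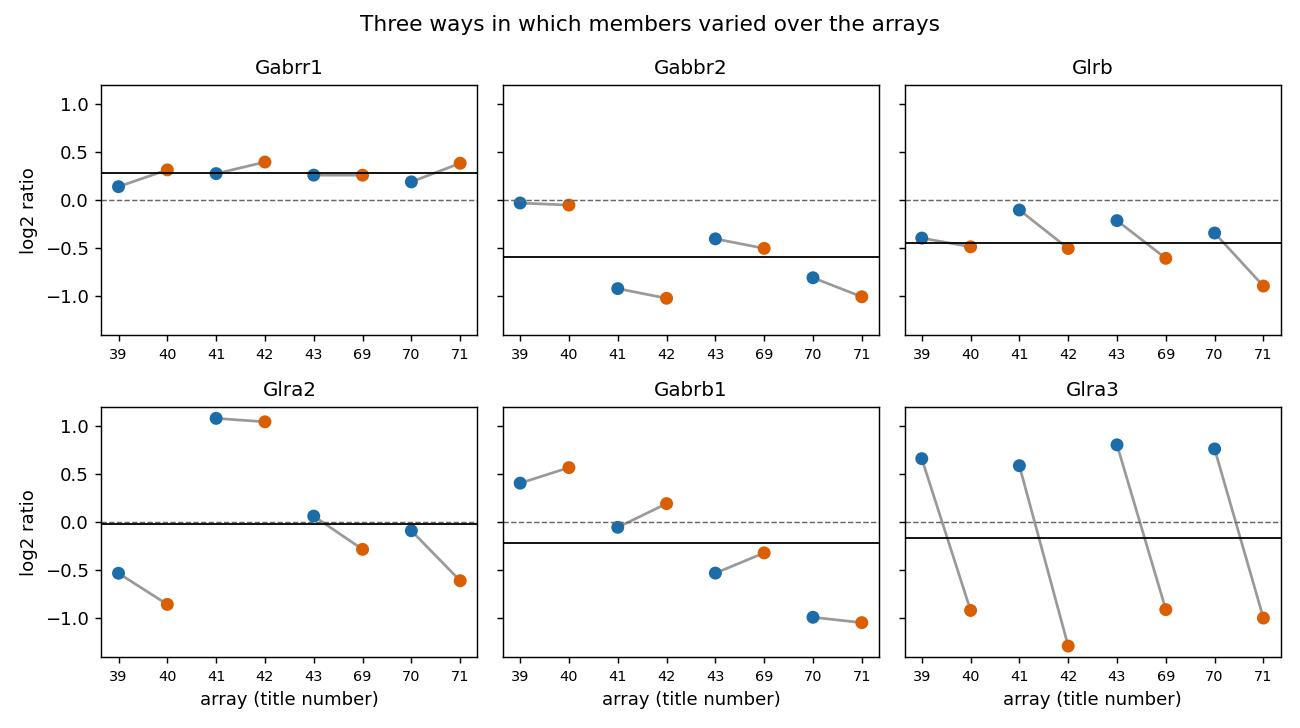
Log2 ratio (vertical axis) of 6 genes on each array (horizontal axis, title number), with blue for set 1, orange for set 2, grey lines joining neighbouring arrays and a black line at the mean. Gabrr1, Gabbr2 and Glrb stay on one side of 0, Glra2 and Gabrb1 are alike on neighbouring arrays but differ between pairs, and Glra3 changes side from each array to the next.

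The Gabrr genes lay on the positive side as deposited, with means of 0.28, 0.04 and 0.31. Gabrr1 was called. Its ratios were 0.14 on array 39, 0.32 on 40, 0.28 on 41, 0.40 on 42, 0.26 on 43, 0.26 on 69, 0.19 on 70 and 0.39 on 71. All 8 were positive, the lowest being 0.14 on array 39, and the spread was small. The mean was 0.28 ± 0.09 (n = 8, 1.21-fold), with a limma adjusted p = 0.0344, an exact sign-flip permutation p = 0.00781 and a 95% interval from 0.15 to 0.40. Set means were 0.22 and 0.34, and the turned mean was -0.06 (limma adjusted p = 0.678). Averages of neighbouring arrays gave a limma adjusted p = 0.123. The call was also lost without any 1 of arrays 40, 41, 42, 43, 69, 70 and 71 (limma adjusted p from 0.0686 to 0.0992).

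Gabrr2, which lies next to Gabrr1 on chromosome 5, behaved otherwise. It was -0.15, -0.18, -0.29 and -0.26 in set 1 and 0.35, 0.23, 0.34 and 0.26 in set 2. The sets did not overlap, and the mean was 0.04 ± 0.28 as deposited (limma adjusted p = 0.962) and -0.26 when turned (0.00238). Gabrr3 lay at 0.31 ± 0.40 (limma adjusted p = 0.327) and was positive on 7 of 8 arrays, with 1.23 on array 42 and a mean of 0.18 without that array.

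The Gabrr subunits are best known from bipolar cells, so markers of that type are given beside them. Of 10 measured bipolar markers, 2 were called, both positive: Otx2 at 0.49 ± 0.21 and Trpm1 at 0.42 ± 0.16, with turned means of 0.12 and 0.10. Others lay on the other side: Pcp2 was at -0.37 ± 0.30 and negative on 8 of 8 arrays (limma adjusted p = 0.106), and Gng13 at -0.18 ± 0.22. The list mean ran from -0.09 to 0.18 over the arrays and was positive on 5 of 8. Rod markers, with 0 of 10 called in limma and 6 at an unadjusted p under 0.05, ran from -0.01 to 0.80. The part of these cells in the Gabrr1 value was not tested.

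No GABA-A alpha subunit was called in limma, and 2 of 5 had an unadjusted p under 0.05. Gabra2 came nearest. Its ratios were -0.54 and -0.60 on arrays 39 and 40, 0.08 and 0.07 on 41 and 42, -0.60 and -0.82 on 43 and 69, and -0.47 and -0.86 on 70 and 71. The 6 negative arrays lay far from the pair at 41 and 42. The mean was -0.47 ± 0.36 (1.38-fold, limma adjusted p = 0.0763), larger in size than those of the called Glrb and Gabrr1. Over 20 alternatives its adjusted p ran from 0.0241 to 0.401. It was called in 2 of them, with set as a covariate (0.0479) and without arrays 41 and 42, the only ones on the positive side. With averages of neighbouring arrays it was 0.259, and the turned mean was 0.08. Gabra4 lay at -0.21 ± 0.25, with -0.56 and -0.54 on arrays 39 and 40 and values from -0.28 to 0.11 on the rest (limma adjusted p = 0.328).

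Gabra3, Gabra5 and Gabra6 lay at -0.03 ± 0.16, -0.10 ± 0.41 and 0.03 ± 0.28. Gabra5, the alpha subunit known for receptors outside synapses in hippocampus, was from 0.08 to 0.36 in set 1 and from -0.75 to -0.23 in set 2. Its turned mean was 0.34 (limma adjusted p = 0.00699). Only 1 of its 2 probes split in this way: that probe was positive on all arrays of set 1 and -0.89 to -1.61 on set 2, while the other stayed between -0.38 and 0.44 with the opposite order.

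The beta subunits, which help to form the GABA site, had no called member in limma and none at an unadjusted p under 0.05. Gabrb1 ran from 0.57 on array 40 to -1.05 on array 71. Neighbouring arrays stood close together, at 0.41 and 0.57, -0.05 and 0.19, -0.53 and -0.32, and -0.99 and -1.05. Its mean of -0.22 ± 0.61 (limma adjusted p = 0.745) had a 95% interval from -0.64 to 0.19. Gabrb2 lay at -0.12 ± 0.17, between -0.35 and 0.07.

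Of the gamma, delta, epsilon, pi and theta subunits, none of 6 was called in limma and none had an unadjusted p under 0.05. Their means ran from -0.02 for Gabrp to 0.15 for Gabrq. Gabrd, the subunit of tonic receptors outside the synapse, lay at 0.05 ± 0.17, with a 95% interval from -0.10 to 0.21. Gabrg1 lay at 0.09 ± 0.17 and Gabrg3 at 0.01 ± 0.16. Gabrq was from 0.39 to 0.63 in set 1 and from -0.32 to 0.00 in set 2, with a turned mean of 0.38 (limma adjusted p = 0.00446). Gabre was from 0.22 to 0.32 in set 1 and from -0.38 to 0.09 in set 2, with a turned mean of 0.23 (0.016), and both of its probes showed this.

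GABA-A subunit genes lie in clusters, which the choice of genes did not use. On chromosome 14, Gabrg1, Gabra2, Gabra4 and Gabrb1 are grouped, with at most 1 protein-coding gene between neighbours. Their means were 0.09, -0.47, -0.21 and -0.22. Their arrays differed too: Gabrb1 was highest on arrays 39 and 40, where Gabra4 was lowest. On the X chromosome, Gabre, Gabra3 and Gabrq are separated by 1 gene each and lay at 0.05, -0.03 and 0.15. The pairs Gabrg3 with Gabra5 on chromosome 1 and Gabra6 with Gabrb2 on chromosome 10 had means of 0.01 and -0.10, and of 0.03 and -0.12.

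Scaffold and trafficking genes had no called member in limma, with 2 of 3 at an unadjusted p under 0.05. Gphn encodes gephyrin, which anchors glycine receptors and many GABA-A receptors. Its ratios were -0.17 and 0.22 on arrays 39 and 40, 0.74 and 0.80 on 41 and 42, 0.27 and 0.53 on 43 and 69, and 0.07 and 0.35 on 70 and 71. Only array 39 was negative. The mean was 0.35 ± 0.33 (limma adjusted p = 0.161) as deposited and -0.13 with set 2 turned (0.566). Its 2 probes averaged 0.37 and 0.33 but followed different arrays. The first ran from -0.26 to 0.32 in set 1 and from 0.48 to 0.88 in set 2. The other did not split by set and was highest on arrays 41 and 42, at 1.15 and 0.76. Each probe was negative on 2 arrays. Within every array the Glrb ratio lay below the Gphn ratio, with differences from -1.31 to -0.22. The mean difference was -0.80 ± 0.41 as deposited and 0.31 when turned. This order holds for the means of probes only. On array 39, 1 Glrb probe stood at 0.68, above both Gphn probes at -0.26 and -0.08.

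Gabarap, which binds the gamma subunit and takes part in receptor transport, lay at -0.14 ± 0.12 (limma adjusted p = 0.353) and was negative on 7 of 8 arrays. Nlgn2, the adhesion protein of inhibitory synapses, lay at 0.05 ± 0.31 with 4 arrays on each side.

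No chloride transport gene was called in limma, and none of 4 had an unadjusted p under 0.05. Slc12a5 was -0.17 on array 39, -1.63 on 40, 0.13 on 41, -0.12 on 42, -0.03 on 43, -0.53 on 69, -0.10 on 70 and -0.30 on 71. Array 40 stood far below the others. The mean of -0.34 ± 0.55 (limma adjusted p = 0.455) became -0.16 without that array. Its probes averaged -0.62 and -0.07, and on array 40 they were at -2.65 and -0.60. Only the second split by set, from 0.10 to 0.80 in set 1 and from -0.83 to -0.40 in set 2.

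Slc12a2 lay at -0.02 ± 0.49 with 4 arrays on each side (limma adjusted p = 0.984). Within an array, the Slc12a5 ratio minus the Slc12a2 ratio was -0.32 ± 0.61, negative on 5 of 8 arrays, from -1.40 to 0.42, and -0.03 when turned. This difference of RNA ratios had no single sign over the arrays, and it rests on probes that disagree. On array 39 the Slc12a2 probes were at -1.15 and 0.60 and the Slc12a5 probes at -1.15 and 0.80. Clcn2, a chloride channel opened by hyperpolarisation, lay at -0.14 ± 0.25, with -0.36 and -0.62 on arrays 70 and 71 as its lowest values.

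Clcn3, an exchanger of chloride for protons on endosomes and vesicles, alternated. Its ratios were 0.16, 0.51, 0.47 and 0.30 in set 1 and -0.69, -0.44, -0.44 and -0.63 in set 2. The sets did not overlap, and its mean was -0.10 ± 0.50 as deposited (limma adjusted p = 0.913) and 0.45 when turned (0.00111). Again 1 probe carried the split, with all set 1 arrays between 0.64 and 0.94 and all set 2 arrays between -1.34 and -0.96, while the other ran from -0.46 to 0.46 without it.

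**Figure D3:**
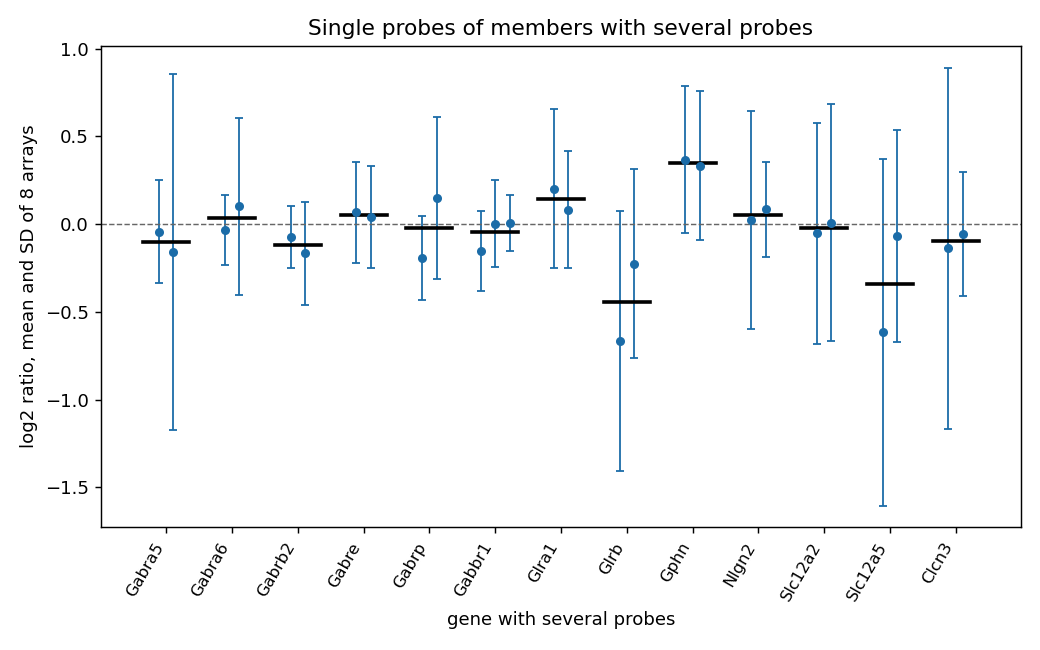
Mean log2 ratio of each single probe (blue points, bars are the SD of 8 arrays) for the 13 genes with several probes, with the gene mean as a black bar. The probe means of Glrb and Slc12a5 lie 0.44 and 0.55 apart, and those of Gphn 0.04 apart.

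With the signs of set 2 turned, limma called 6 members, 5 positive and 1 negative, beside 28.1% of all genes (13.6% positive and 14.5% negative). The positive ones were Glra3, Clcn3, Gabrq, Gabra5 and Gabre, and the negative one was Gabrr2. Gabbr2, Glrb and Gabrr1 were not among them. The sets did not overlap for these 6 and for Glrb, 7 of the 30 members, and for 34.9% of all genes. The turned mean measures the difference between the sets. A gene with similar values in both sets can therefore hardly be called after turning, and a turned call goes largely with sets that do not overlap. Neither outcome is separate support for a call. The nearest to a turned call was Slc12a2, at 0.33 (limma adjusted p = 0.0518), and Slc12a5 lay at 0.30 (0.242). The turned means of Gabra4, Gabra6, Gabrb1, Gabrb2 and Gabrg3 were -0.10, -0.12, -0.07, -0.10 and -0.11. Those of Gabrr3 and Glra1 were -0.18 and -0.06, of Glra2 and Gabrp 0.15 and 0.12, and of Gabarap 0.07. Gabra3, Gabrg1, Gabrd, Gabbr1, Glra4, Nlgn2 and Clcn2 all lay between 0.00 and 0.03 in size. If set 2 held the swapped arrays and these were deposited unturned, the turned values would compare large with small cells. The labels do not say which arrays were swapped. If set 1 held them instead, every turned sign would reverse.

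**Figure D4:**
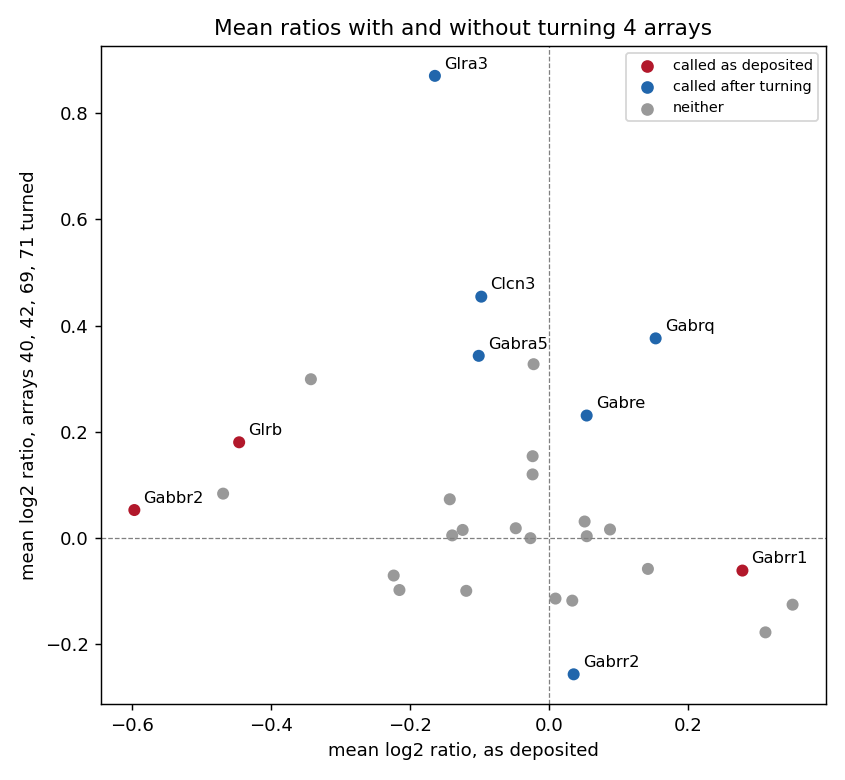
Mean log2 ratio as deposited (horizontal axis) and with arrays 40, 42, 69 and 71 turned (vertical axis) for the 30 measured genes. The 3 genes called as deposited (red) lie near 0 on the vertical axis compared with Glra3 at 0.87, and the 6 genes called after turning (blue) lie between -0.16 and 0.15 on the horizontal axis.

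The 8 ratios of each gene can be split by their sum of squares into a share for the mean over arrays, one for the difference between the sets, one for differences between pairs of neighbouring arrays, and a rest. The mean had the largest share for 13 of the 30 members, the set for 9, the pair for 6 and the rest for 2. Those 13 hold the 3 called genes but also uncalled ones, such as Gabbr1 with a mean of -0.05 (limma adjusted p = 0.838). For Slc12a5 the largest share was only 30.5%. Over the 14665 genes with 8 values these were 15.7%, 43.0%, 30.8% and 10.4%, and the members' counts correspond to 43.3%, 30.0%, 20.0% and 6.67%. The mean took 91.9% for Gabrr1, 79.1% for Glrb, 74.9% for Glra4 and 70.8% for Gabbr2. The pair took 93.2% for Glra2, 84.5% for Gabrb1 and 78.2% for Gabrd. The set took 94.7% for Glra3, 94.0% for Gabrr2 and 88.9% for Clcn3. These shares describe the 8 arrays and were not tested.

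**Figure D5:**
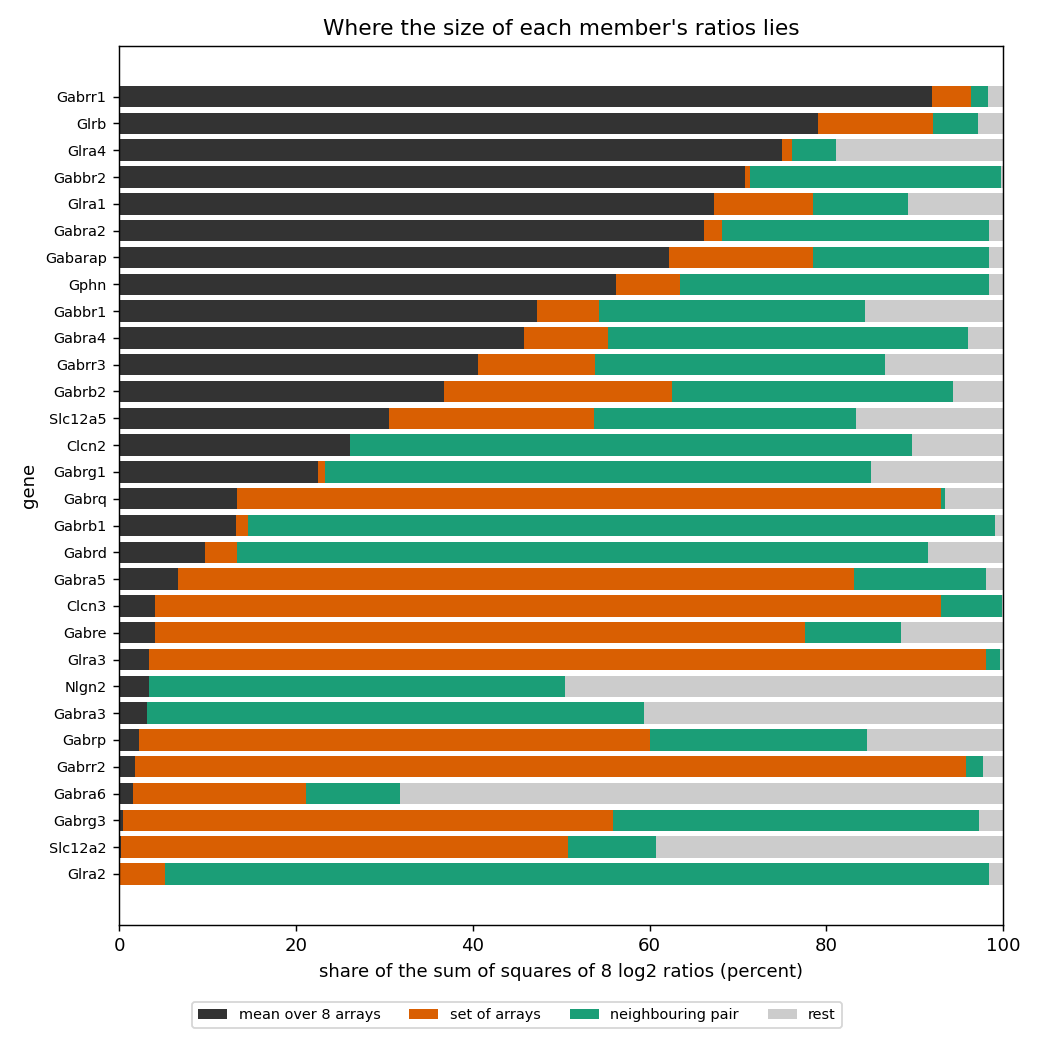
For each of the 30 measured genes, the percentage of the sum of squares of its 8 log2 ratios (horizontal axis) that falls to the mean over arrays, the set, the neighbouring pair and the rest. Gabrr1 and Glrb are mostly mean, Glra2 and Gabrb1 mostly pair, and Glra3 and Gabrr2 mostly set.

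Further genes of inhibitory transmission were counted in 4 lists, to be read against the 2.19% of all genes called. Enzymes and transporters of GABA and glycine had 0 of 11 called in limma, with 3 at an unadjusted p under 0.05, and 8 of their means were positive. Scaffold and trafficking genes had 1 of 21, Slitrk3, an adhesion protein of inhibitory synapses, at -0.53 ± 0.28 (limma adjusted p = 0.021), negative on 8 of 8 arrays. GABA-B auxiliary and effector genes had 1 of 14, Kcnj5, a subunit of the potassium channels that G proteins open, at -0.58 ± 0.17 (limma adjusted p = 0.00691). Kcnj5 was negative on 8 of 8 arrays, and its range was from -0.82 to -0.37. Of the 14 means in this GABA-B list, however, 8 were positive and 6 negative. Genes of chloride and bicarbonate transport had 1 of 23, Slc4a7, a sodium bicarbonate cotransporter, at 0.64 ± 0.35 (0.0193), positive on 8 of 8 arrays. Over averages of neighbouring arrays these 3 had limma adjusted p-values of 0.126, 0.0931 and 0.112, and with set 2 turned their means were -0.07, -0.07 and 0.19. Turned, the 4 lists had 5, 5, 4 and 3 genes called, where 28.1% of all genes were. Amacrine markers, which could enter with cells attached to the sorted ones, had 0 of 10 called in limma, with 3 at an unadjusted p under 0.05, and list means from 0.04 to 0.18.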

How the data were processed

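Expression was measured on 8 two-colour arrays. The authors' deposited value table holds 41048 probes as a log2 ratio per array, centred close to 0. The log base was taken from the spacing of common values, and no source used here states the background correction, normalization or software. Probes were named through the platform's probe table, updated by gene identifier through RefSeq (GRCr8, for names and gene order). Of 41048 probes, 23374 had 1 symbol, 48 several and 17626 none, and 23327 identifiers matched. Values of a size above 15 (73 in all) and exact zeros (574) were set to missing, and none belonged to a member. A gene was the mean of its probes and needed 6 arrays.

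Mean ratios were tested against 0 with limma 3.58.1 (R 4.3.3; lmFit and eBayes, intercept only) and Benjamini-Hochberg adjustment over 14801 genes. In simulated data of that size it recovered 50% of 100 genes at a log2 ratio of 0.5 and 92% of 100 at 1, with 1 false call. Python 3.11.15 with Biopython 1.88 and matplotlib 3.10.9 served for sequences and plots. The scaling alternative used normalizeMedianAbsValues. The number of arrays limits precision, and no intensities were used. The members, gene lists, array sets and pairing were chosen with earlier results of these data known. All members were named, and other genes of the lists only if called.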

Additional observations from a re-analysis of the deposited data

Results flagged for a closer look

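On array 42, Gabrr3 stood at 1.23, with the next highest array at 0.34, a gap of 0.635 of its whole range. On array 40, Slc12a5 stood at -1.63, with the next lowest at -0.53, a gap of 0.628. Both were marked because 1 array lay further from the rest than Dixon's 95% limit of 0.526 for 8 values. They were 2 of 30 genes tested. For independent, normally distributed values chance alone marks about 1 in 20, a rate that need not hold where arrays share RNA.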

How the results depend on the processing

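Members called were 3, and 314 to 354 genes against 324, with values kept as deposited, array scaling or medians of probes. Median centring gave 2 members and 312 genes. Set as a covariate gave 4 members and 928 genes, and with neighbouring arrays as a random block besides 2 and 450. Averaging neighbouring arrays gave 0 members and 0 genes in limma, single probes 0, and the exact sign-flip permutation test 0 (11 members and 12.4% of all genes at an unadjusted p under 0.05). With set 2 turned there were 6 members and 4161 genes. Leaving out 1 array gave 0 to 3 members and 134 to 330 genes, with 6 or 7 members at an unadjusted limma p under 0.05. The count was 3 without array 39, 1 without 40 or 41, and 0 without 42, 43, 69, 70 or 71. The genes were 195 without 41, 188 without 42, 159 without 43, 205 without 69, 134 without 70 and 168 without 71. Leaving out neighbouring arrays was added after seeing the data. Without 39 and 40 there were 1 member and 392 genes, and without 41 and 42 there were 1 and 57. Without 43 and 69 there were 0 and 21, and without 70 and 71 there were 0 and 5. At an unadjusted limma p under 0.05 there were 5 members without 43 and 69, and 8 without 70 and 71. Fewer arrays enter these fits, and the cause of each change was not tested. Over 20 alternatives the adjusted limma p ran from 0.0145 to 0.316 for Gabbr2, 0.00425 to 0.184 for Glrb and 0.0057 to 0.239 for Gabrr1, and these genes kept their sign; turning set 2 is outside these 20.

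Means near 0 changed sign. Without 1 array, the range was -0.060 to 0.0054 for Gabra3, -0.038 to 0.078 for Gabra6, -0.028 to 0.044 for Gabrg3, -0.053 to 0.011 for Gabrp, -0.0089 to 0.082 for Gabrr2, -0.18 to 0.096 for Glra2 and -0.12 to 0.076 for Slc12a2. Scaling moved Slc12a2 to 0.0074. Without arrays 39 and 40, Gabrd was -0.020, Glra2 0.20, Nlgn2 -0.026 and Slc12a2 0.053. Without 41 and 42, Gabra6 was -0.012. Without 43 and 69, Gabra3 was 0.028, Gabrg3 -0.042, Gabrp 0.014 and Glra2 0.0058. Without 70 and 71, Gabrb1 was 0.043 and Glra2 0.086. No paired analysis was possible because all arrays belong to 1 group.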
